A study of Sus scrofa with 24 samples.

Results

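Transcripts that mark Kupffer cells and other macrophages were followed in the livers of 24 pigs (Sus scrofa) from lines selected on residual feed intake (RFI). The set was 10 genes, CD163, CD68, MARCO, CSF1R, C1QA, C1QB, C1QC, CD5L, MSR1 and CD84, and its members were all array probes whose annotation names one of them. Of the 10 genes, 6 were found, out of 5263 gene symbols named on the array, with 14 of its 43603 probes: CD163 had 6 probes, CD5L 3, CD84 2, and C1QA, C1QB and C1QC 1 each. No probe named CD68, MARCO, CSF1R or MSR1, so the set rests on the 6 genes found.

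RFI is the feed a pig eats beyond what its growth and maintenance predict, so a low value marks an efficient animal. The labels give a body weight of 115 kg for all pigs, and each gave 1 liver sample. The restricted high RFI group (RFIplR, 8 pigs) came from the high RFI line and received feed at the level eaten by the low RFI line. The high RFI group (RFIpl, 8 pigs) and the low RFI group (RFIneg, 8 pigs) were fed ad libitum. The tissue was whole frozen liver, so each value is an average over hepatocytes and all other liver cells. In such bulk samples fewer macrophages and less RNA per macrophage cannot be told apart.

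Each pig was measured on 1 single-colour array. Levels are log2 of the background-subtracted signal, scaled so that 0 is the 75th percentile of each array and a step of 1 is a 2-fold change. The share of spots well above background was 67.4% ± 2.81 in RFIplR, 70.2% ± 2.28 in RFIpl and 67.8% ± 2.77 in RFIneg pigs (SD, n = 8 each), and correlations between arrays ran from 0.971 to 0.991. The arrays were scanned on 2 days, with 5 RFIplR, 4 RFIpl and 3 RFIneg pigs on day 1 and 3 RFIplR, 4 RFIpl and 5 RFIneg pigs on day 2. Markers of hepatocytes were bright in every group, with a mean level over 5 genes of 8.65 ± 0.06 in RFIplR, 8.70 ± 0.12 in RFIpl and 8.69 ± 0.04 in RFIneg pigs (SD, n = 8).

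Kupffer cells are the resident macrophages of the liver sinusoids, where they take up microbes, spent red cells and their debris from portal blood. CD163 is the scavenger receptor that clears complexes of haemoglobin and haptoglobin. C1QA, C1QB and C1QC encode the chains of C1q, the recognition subunit that starts the classical complement pathway and is made largely by macrophages. CD5L is a secreted scavenger-receptor-like protein of tissue macrophages, and CD84 is a self-binding receptor of the SLAM family on leukocytes.

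Some of the 14 probes are shown as they were printed on the array, each a 60-base oligonucleotide in the 5′ to 3′ direction, taken from the scanner output. The CD163 probes shown are the 3 with the smallest unadjusted p in both comparisons of RFIplR pigs. The C1QB and C1QC probes are the only one for each of these chains, and the CD84 probe is the one with the larger difference between RFIplR and RFIpl pigs. Among the 6 CD163 probes no run of more than 8 bases was shared by any pair.
CD163 A_72_P170001: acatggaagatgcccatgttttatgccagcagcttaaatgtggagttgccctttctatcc
CD163 A_72_P624895: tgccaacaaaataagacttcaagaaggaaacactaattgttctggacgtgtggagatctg
CD163 A_72_P656100: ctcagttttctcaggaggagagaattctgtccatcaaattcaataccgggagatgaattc
C1QB A_72_P442926: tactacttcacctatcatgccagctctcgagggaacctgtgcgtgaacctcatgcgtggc
C1QC A_72_P403253: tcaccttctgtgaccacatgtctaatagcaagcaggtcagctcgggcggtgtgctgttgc
CD84 A_72_P474454: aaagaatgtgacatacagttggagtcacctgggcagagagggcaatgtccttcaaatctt

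CD163, the haemoglobin scavenger receptor, had its highest mean in RFIplR pigs, an intermediate mean in RFIpl pigs and its lowest in RFIneg pigs on all 6 probes. Between RFIplR and RFIneg pigs, lines on the same level of feed, the means differed by 0.48 to 0.90 on the log2 scale, or 1.40-fold to 1.87-fold. The top of that range came from A_72_P119126 (0.90) and A_72_P080421 (0.88), assigned to CD163 by their description alone. The probes assigned by gene name differed by 0.48 to 0.72, or 1.40-fold to 1.65-fold. None of the 6 probes passed the threshold, an adjusted p below 0.05 by limma with Benjamini-Hochberg adjustment over 29661 probes. The adjusted p ran from 0.0712 to 0.201 over the 6 probes, and the unadjusted p from 0.000273 to 0.00621. In this comparison 0 of the 14 macrophage probes were called by limma, beside 0.276% of all probes. At an unadjusted p under 0.05 there were 6 of the 14, all CD163 and all higher in RFIplR pigs, beside 12.7% of all probes in either direction and 6.56% higher. The 6 probes are annotated to 1 gene and were read in the same pigs, so they are not separate observations. Whether all 6 read the same transcript was not checked.

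The brightest CD163 probe, A_72_P177981, was well above background in all 24 pigs. Its lowest, median and highest levels were 3.49, 4.23 and 4.91 in RFIplR pigs, 3.47, 4.02 and 4.32 in RFIpl pigs, and 3.23, 3.80 and 4.25 in RFIneg pigs. The groups overlapped, with 3 of 8 RFIplR pigs above every RFIneg pig and 7 of 8 above the RFIneg mean. RFIplR pigs exceeded RFIneg pigs by 0.48 ± 0.16 (SE, limma unadjusted p = 0.00621, adjusted p = 0.201).

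Probe A_72_P656100 read 2.23, 3.09 and 3.54 at the lowest, median and highest RFIplR pig, 2.19, 2.64 and 3.04 in RFIpl pigs, and 1.94, 2.42 and 2.74 in RFIneg pigs. Here 7 of 8 RFIplR pigs lay above every RFIneg pig, and 5 of 8 above every RFIpl pig. The difference between RFIplR and RFIneg pigs was 0.65 ± 0.15 (SE, limma unadjusted p = 0.000312, adjusted p = 0.0734).

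On probe A_72_P170001 the lowest, median and highest levels were -1.26, -0.20 and 0.16 in RFIplR pigs, -1.36, -0.68 and -0.27 in RFIpl pigs, and -1.59, -0.97 and -0.58 in RFIneg pigs. Again 7 of 8 RFIplR pigs were above every RFIneg pig, and RFIplR pigs exceeded RFIneg pigs by 0.72 ± 0.18 (SE, limma unadjusted p = 0.000522, adjusted p = 0.0830). Probe A_72_P624895 gave -0.63, 0.09 and 0.31 in RFIplR pigs, -0.72, -0.26 and -0.14 in RFIpl pigs, and -1.17, -0.55 and -0.28 in RFIneg pigs. Its difference between RFIplR and RFIneg pigs was 0.60 ± 0.14 (SE, limma unadjusted p = 0.000273, adjusted p = 0.0712), with 6 of 8 RFIplR pigs above every RFIneg pig.

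Probe A_72_P119126 covered a 5.41-fold range over the 24 pigs and differed by 0.90 ± 0.29 between RFIplR and RFIneg pigs (SE), with 8 of 8 RFIplR pigs above the RFIneg mean (limma adjusted p = 0.172). For probe A_72_P080421 the same difference was 0.88 ± 0.24 (SE, limma adjusted p = 0.104).

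**Figure D1:**
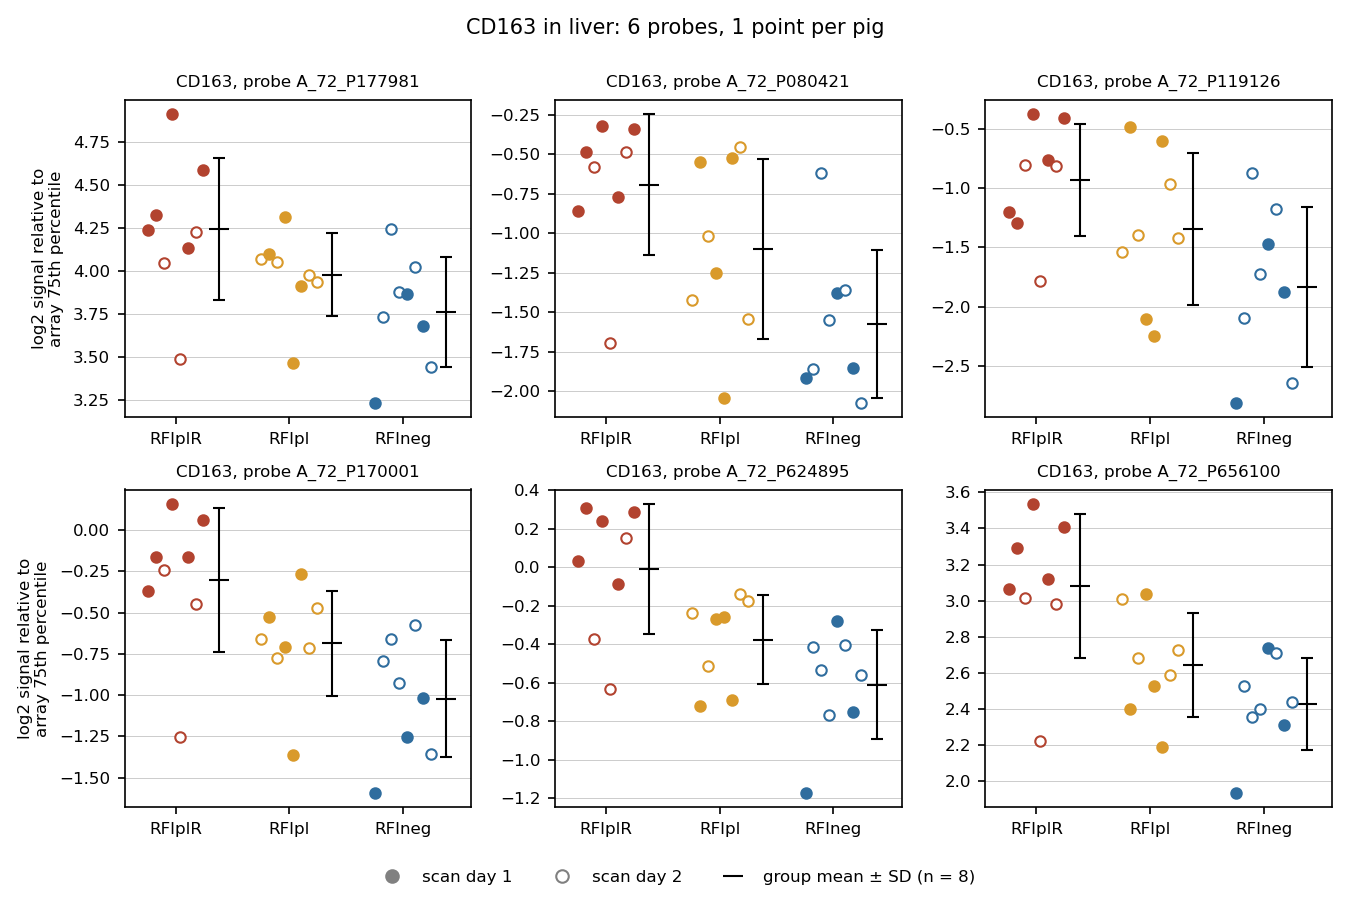
CD163 level of each pig on its 6 probes, 1 panel a probe with its own vertical axis, in log2 signal scaled to the array's 75th percentile. Filled points were scanned on day 1 and open points on day 2, and bars are the group mean ± SD (n = 8). RFIplR pigs have the highest mean in every panel, and 1 open RFIplR point, pig 5, lies lowest of its group in every panel.

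A single animal stood apart within the restricted group. RFIplR pig 5 was the lowest RFIplR pig on all 6 CD163 probes, and RFIplR pig 4 was the highest on 5 of 6. Without pig 5, the differences between RFIplR and RFIneg pigs were 0.59 to 1.03, and 4 of the 6 CD163 probes passed the limma threshold. Their adjusted p was 0.0103 for A_72_P656100, 0.0163 for A_72_P170001, 0.0225 for A_72_P624895 and 0.0407 for A_72_P080421. Over all 29661 probes 129 were called without pig 5, against 82 with every pig kept. No other pig left out in turn brought any CD163 probe past the threshold. Other pigs left out made the difference smaller. Over the 16 single pigs left out, the smallest difference was 0.39 for A_72_P177981 and 0.81 for A_72_P080421, the ends of the range over the 6 probes. The largest adjusted p by limma ran from 0.136 to 0.341 over the 6 probes. Pig 5 lay on slide 6, and leaving out that whole slide, pig 5 included, also gave 4 called CD163 probes, with differences of 0.62 to 1.10. Over the alternatives of settings, slides or scan days at most 100 of the probes tested in each were called. Leaving out slide 6 also dropped RFIneg pig 3, the highest RFIneg pig on 3 of 6 CD163 probes, and RFIneg pig 8, the lowest on 1. RFIneg pig 1, on slide 2, was the lowest on the other 5.

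The CD163 difference was larger among the pigs scanned on day 1. Within day 1 (5 RFIplR and 3 RFIneg pigs) the 6 probes differed by 0.85 to 1.24 between RFIplR and RFIneg pigs, and within day 2 (3 RFIplR and 5 RFIneg pigs) by 0.06 to 0.57, with all 6 above 0 on both days. On day 2 the mean of A_72_P177981 was 3.92 ± 0.38 in RFIplR pigs (SD, n = 3) and 3.87 ± 0.30 in RFIneg pigs (SD, n = 5), whereas on day 1 it was 4.44 ± 0.31 in RFIplR pigs (SD, n = 5) and 3.59 ± 0.32 in RFIneg pigs (SD, n = 3). A limma test of the change between days gave unadjusted p of 0.00764 to 0.0248 for A_72_P170001, A_72_P177981, A_72_P656100 and A_72_P624895, and of 0.257 for A_72_P080421 and 0.284 for A_72_P119126. The adjusted p ran from 0.273 to 0.692 over the 6 probes, and 12% of all probes had an unadjusted p under 0.05 in that test. With scan day as a block the differences were 0.47 to 0.91, and with slide as a block 0.46 to 0.91, with no CD163 probe called under either. RFIplR pig 5 was scanned on day 2, and RFIneg pig 1 on day 1.

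Feed restriction within the high RFI line is read from RFIplR against RFIpl pigs. CD163 was higher in RFIplR pigs by 0.27 to 0.43 on the log2 scale, or 1.20-fold to 1.35-fold, and 0 of its 6 probes were called. Among all 29661 probes limma called 0 here (0%), and 5.31% had an unadjusted p under 0.05. Of the 14 macrophage probes 4 had an unadjusted p under 0.05, of which 3 were CD163 probes higher in RFIplR pigs, beside 2.76% of all probes in that direction. The other was a CD84 probe, lower in RFIplR pigs, as were 2.55% of all probes at that p. Those 3 were A_72_P656100 at 0.43 ± 0.15 (unadjusted p = 0.00988), A_72_P624895 at 0.37 ± 0.14 (unadjusted p = 0.0159) and A_72_P170001 at 0.38 ± 0.18 (unadjusted p = 0.0434, all SE by limma, adjusted p 0.835 to 0.919). The 6 differences were 0.49 to 0.74 within scan day 1 and -0.09 to 0.19 within scan day 2.

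Between the lines fed ad libitum, CD163 in RFIpl pigs exceeded RFIneg pigs by 0.22 to 0.49, or 1.16-fold to 1.40-fold. None of the 6 probes reached an unadjusted p of 0.05, and the limma adjusted p ran from 0.541 to 0.716. The smallest unadjusted p, 0.0562, was that of A_72_P080421, at -1.10 ± 0.57 in RFIpl pigs and -1.58 ± 0.47 in RFIneg pigs (SD, n = 8 each). In this comparison 0 of the 14 macrophage probes were called, beside 0.152% of all probes. Each pair of comparisons shares 1 group of pigs, so the 3 are not independent.

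The 3 chains of C1q, which together form the recognition subunit of the classical complement pathway, gave another order. All 3 had their highest mean in RFIpl pigs, then RFIplR pigs, and their lowest in RFIneg pigs, and the differences were small. C1QA read 3.08, 3.73 and 4.21 at the lowest, median and highest RFIplR pig, 3.46, 3.90 and 4.15 in RFIpl pigs, and 3.07, 3.66 and 4.01 in RFIneg pigs. The groups overlapped over most of their range.

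C1QB read 3.90, 4.62 and 4.88 in RFIplR pigs, 4.32, 4.66 and 4.81 in RFIpl pigs, and 3.90, 4.56 and 4.77 in RFIneg pigs, each as the lowest, median and highest pig. C1QC read 2.16, 2.65 and 3.04 in RFIplR pigs, 2.24, 2.69 and 3.09 in RFIpl pigs, and 1.98, 2.54 and 2.92 in RFIneg pigs. For both chains, as for C1QA, the lowest RFIplR animal was pig 3 and the lowest RFIneg animal was pig 1.

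Between RFIpl and RFIneg pigs the differences were 0.26 for C1QA (95% interval -0.04 to 0.57), 0.17 for C1QB (-0.10 to 0.44) and 0.13 for C1QC (-0.17 to 0.43), with limma adjusted p of 0.600, 0.723 and 0.818. RFIplR minus RFIpl was -0.13 for C1QA, -0.07 for C1QB and -0.03 for C1QC, with 95% intervals of -0.43 to 0.18 for C1QA, -0.34 to 0.19 for C1QB and -0.33 to 0.27 for C1QC. RFIplR pigs exceeded RFIneg pigs by 0.14, 0.10 and 0.10 for the C1QA, C1QB and C1QC probes. No C1q probe had an unadjusted p under 0.05 in any comparison. Within scan day 1 RFIplR minus RFIneg was 0.32 for C1QA, 0.25 for C1QB and 0.42 for C1QC, and within day 2 all 3 chains were below 0, at -0.06, -0.13 and -0.23 in that order. The limma test of the change between days gave unadjusted p of 0.234 for C1QA, 0.165 for C1QB and 0.0326 for C1QC (adjusted p 0.366 to 0.654).

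**Figure D2:**
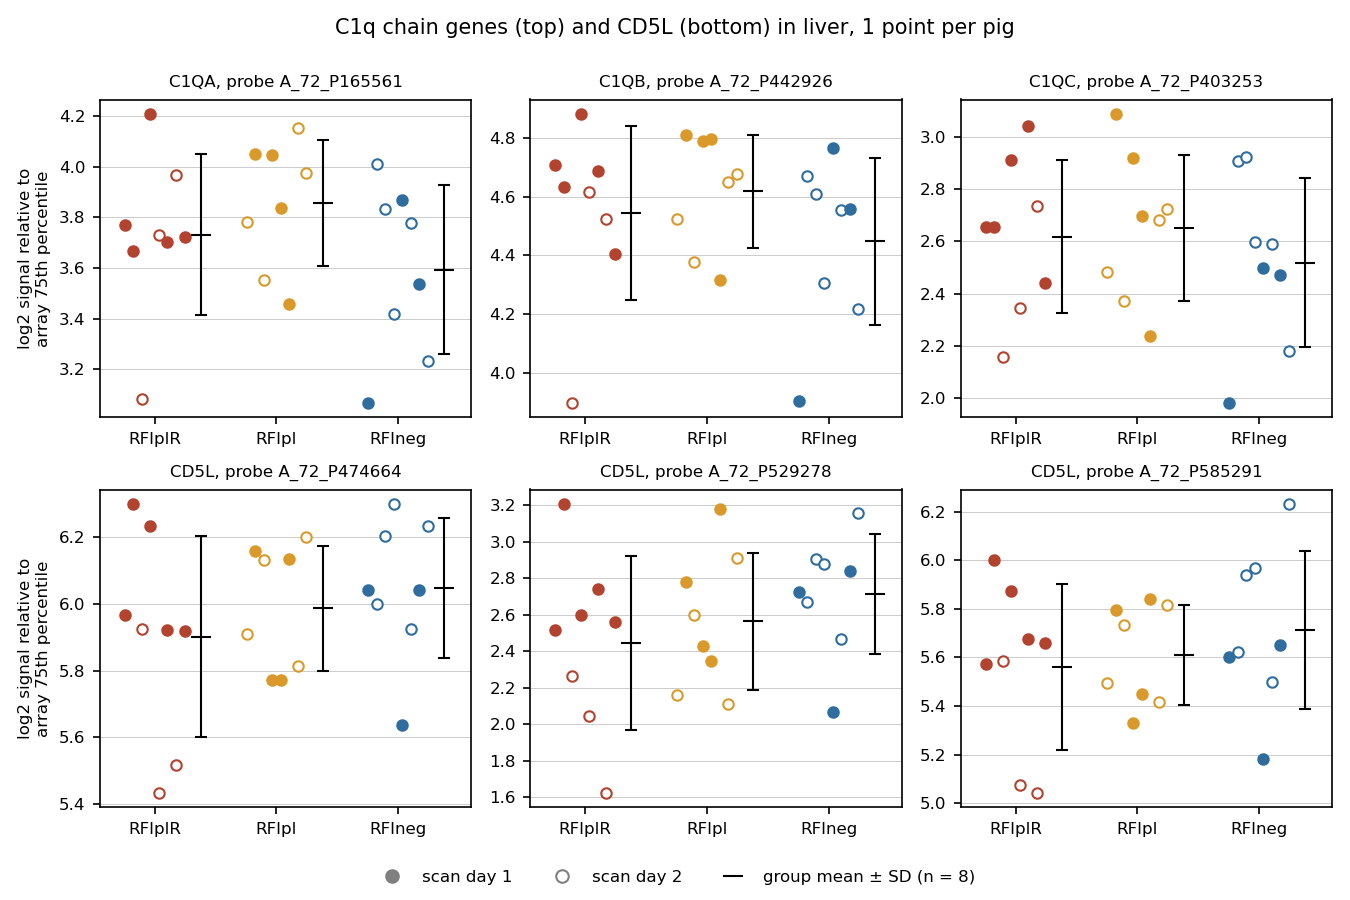
Level of each pig for C1QA, C1QB and C1QC (top row) and the 3 CD5L probes (bottom row), in log2 signal scaled to the array's 75th percentile, each panel with its own vertical axis. Filled points were scanned on day 1 and open points on day 2, and bars are the group mean ± SD (n = 8). The groups overlap in all 6 panels, and the open points of RFIplR pigs 5 and 7 lie lowest of their group in each CD5L panel.

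CD5L, the secreted scavenger protein, ran opposite to CD163 in its order of means, with RFIplR lowest, RFIpl between and RFIneg highest on all 3 probes. The differences were within the spread of the pigs. The brightest probe, A_72_P474664, read 5.43, 5.92 and 6.30 at the lowest, median and highest RFIplR pig, 5.77, 6.02 and 6.20 in RFIpl pigs, and 5.64, 6.04 and 6.30 in RFIneg pigs. RFIplR minus RFIneg was -0.15 ± 0.12 on it (SE, limma adjusted p = 0.661), and -0.27 ± 0.19 and -0.15 ± 0.15 on A_72_P529278 and A_72_P585291. RFIplR minus RFIpl was -0.12 to -0.05 over the 3 probes, and RFIpl minus RFIneg was -0.15 to -0.06, with no unadjusted p under 0.05 in any comparison.

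The order of the CD5L means did not hold on every subset of arrays. RFIpl minus RFIneg was 0.02 to 0.05 over the 3 probes without slide 6, 0.05 to 0.14 within scan day 1 and -0.37 to -0.12 within scan day 2. RFIplR minus RFIneg was 0.16 to 0.28 over the 3 probes within day 1 and -0.84 to -0.51 within day 2. On day 2 the RFIplR mean of A_72_P474664 was 5.63 ± 0.26 (SD, n = 3), against 6.13 ± 0.16 in RFIneg pigs (SD, n = 5). The test of the change between days gave unadjusted p of 0.00188 to 0.00589 over the 3 probes and adjusted p of 0.243 to 0.263 by limma, so no probe passed. With scan day as a block the differences were -0.33 to -0.16.

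CD84, the SLAM family receptor, was the only member not well above background in every pig, and its probes disagreed. Probe A_72_P474454 was well above background in 4 of 8 RFIplR, 8 of 8 RFIpl and 6 of 8 RFIneg pigs. Its lowest, median and highest levels were -5.71, -5.31 and -4.79 in RFIplR pigs, -5.22, -4.56 and -4.25 in RFIpl pigs, and -5.38, -5.03 and -4.58 in RFIneg pigs. No RFIplR pig (0 of 8) reached the RFIpl mean, and 4 of 8 lay below every RFIpl pig.

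RFIplR minus RFIpl on that probe was -0.59 ± 0.16 (SE), with an unadjusted p of 0.000925 and an adjusted p of 0.680 by limma. By its p it ranked 40 of 29661 probes in a comparison that called 0. The difference was -0.55 within scan day 1 and -0.59 within scan day 2. The share of spots well above background, 67.4% in RFIplR and 70.2% in RFIpl pigs, ran in the same direction, and its part in the result was not tested. Under normexp background correction, which models the local background of each spot and here added an offset of 50, the difference was -0.21 (limma unadjusted p = 0.363). An added offset shrinks log2 differences of dim probes, so the smaller size cannot be read as an effect of the background model alone.

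The other CD84 probe, A_72_P248252, was well above background in 6 of 8 RFIplR, 7 of 8 RFIpl and 4 of 8 RFIneg pigs. It read -5.36, -4.95 and -4.74 at the lowest, median and highest RFIplR pig, -5.41, -4.92 and -4.16 in RFIpl pigs, and -6.31, -5.14 and -4.38 in RFIneg pigs. RFIplR minus RFIpl was -0.16 ± 0.21 on it (SE, limma adjusted p = 0.979). Against RFIneg pigs the probes had opposite signs, with RFIplR minus RFIneg at -0.22 on A_72_P474454 and 0.27 on A_72_P248252. Under normexp both were below 0, at -0.35 and -0.25, and within scan day 2 both were at -0.04, while within day 1 they were -0.41 and 0.74.

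RFIpl pigs were above RFIneg pigs on both CD84 probes, by 0.37 ± 0.16 on A_72_P474454 (unadjusted p = 0.0276) and 0.43 ± 0.21 on A_72_P248252 (unadjusted p = 0.0573, both SE by limma, adjusted p = 0.451 and 0.542). The first of these was the only 1 of the 14 macrophage probes with an unadjusted p under 0.05 between the ad libitum lines, beside 9.6% of all probes in either direction and 5.12% higher. Normexp correction turned both differences round, to -0.14 and -0.15. By scan day, RFIpl minus RFIneg was 0.13 on day 1 and 0.55 on day 2 for A_72_P474454, and 0.95 on day 1 and 0.08 on day 2 for A_72_P248252. The limma test of that change gave unadjusted p of 0.214 for A_72_P474454 and 0.0446 for A_72_P248252 (adjusted p = 0.963 for both).

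**Figure D3:**
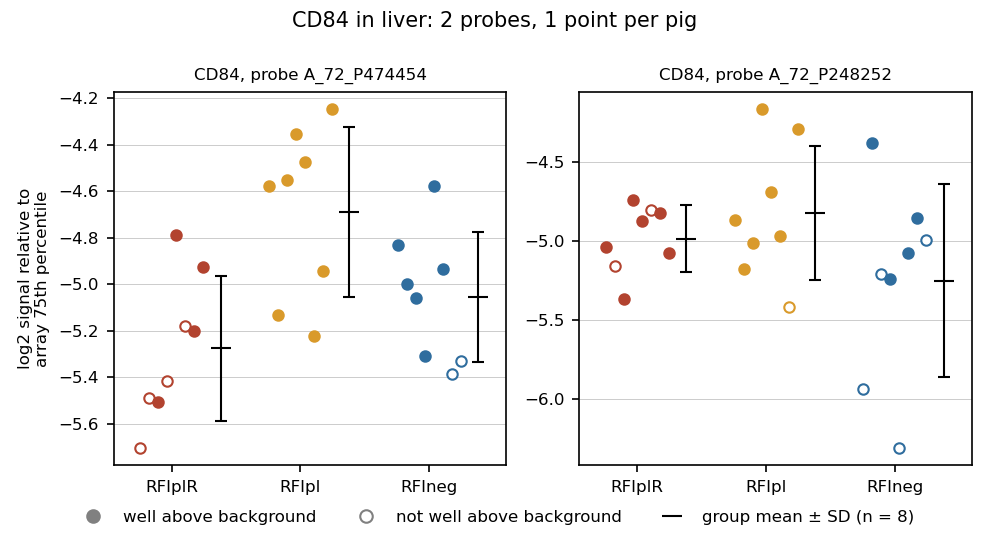
CD84 level of each pig on its 2 probes, in log2 signal scaled to the array's 75th percentile. Open points were not well above background, and bars are the group mean ± SD (n = 8). On A_72_P474454 all RFIplR points lie below the RFIpl mean, while on A_72_P248252 the RFIplR points lie within the RFIpl range.

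Across the brightest probe of each of the 6 genes, the median difference was 0.10 for RFIplR minus RFIneg, -0.08 for RFIplR minus RFIpl and 0.19 for RFIpl minus RFIneg. Over all 29661 probes the medians were 0.000648, -0.00435 and 0.00335 in the same order. The genes did not share a sign: 4 of 6 were above 0 for RFIplR minus RFIneg, 1 of 6 for RFIplR minus RFIpl and 5 of 6 for RFIpl minus RFIneg, where 50.2%, 48.7% and 50.9% of all probes were above 0.

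**Figure D4:**
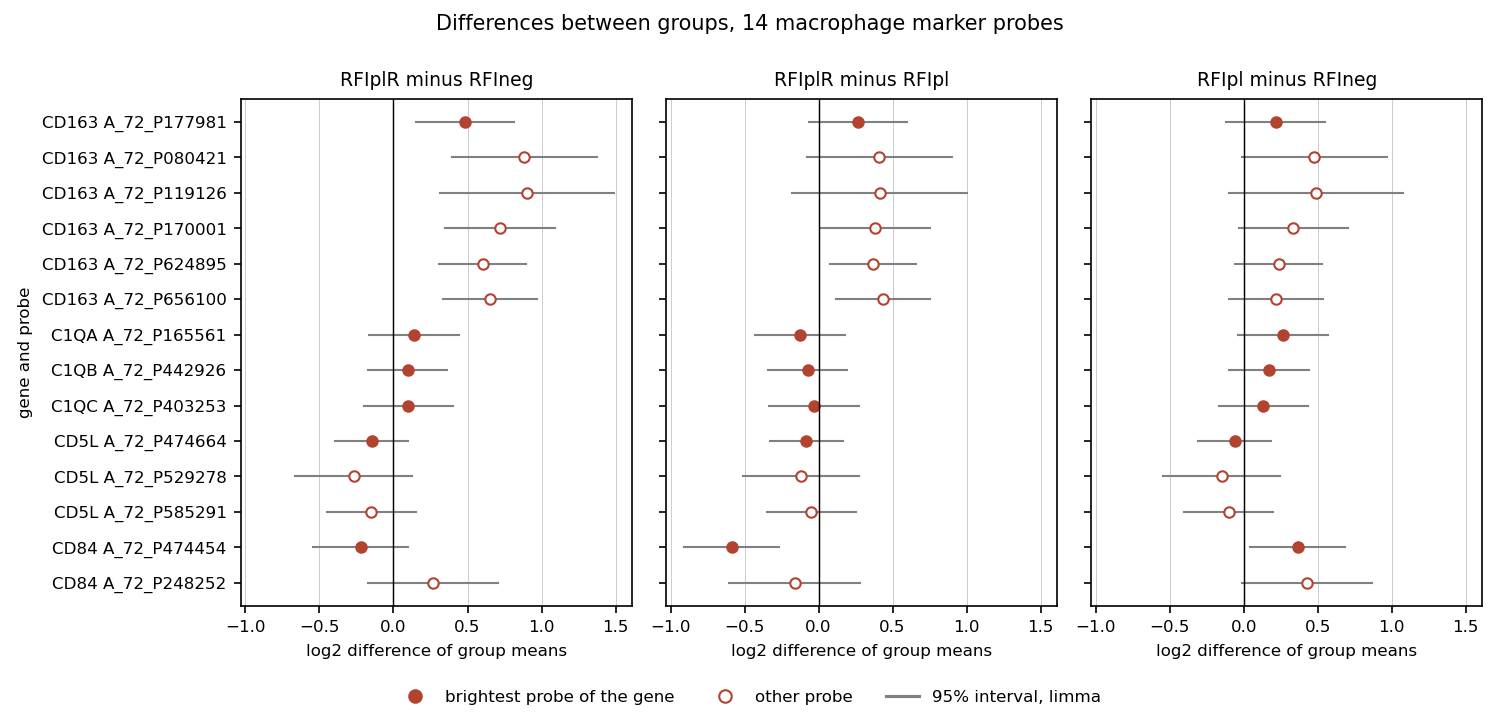
Difference of group means for each of the 14 probes in the 3 comparisons, on the log2 scale, with limma 95% intervals. Filled points mark the brightest probe of a gene. All 6 CD163 intervals lie above 0 for RFIplR minus RFIneg, and the CD84 probe A_72_P474454 lies below 0 for RFIplR minus RFIpl.

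How far the markers varied together from pig to pig was read from deviations from the group means, with a permutation test within groups (100000 resamples, 2-sided, adjusted over 91 pairs of probes). Of the 91 pairs, 19 passed. The 3 C1q chains varied together, with Pearson r of 0.89 for C1QA with C1QB (Spearman rho 0.78), 0.81 for C1QA with C1QC (rho 0.70) and 0.81 for C1QB with C1QC (rho 0.72). All 3 values of r had a permutation p of 1e-05, the smallest the resampling can give, and an adjusted p of 0.000114. The permutation p of rho was 9e-05, 0.00046 and 0.00024 in that order (adjusted p = 0.00164, 0.00465 and 0.00312). Without the 2 pigs farthest from the median r was 0.72 to 0.81, and within the separate scan days it was 0.76 to 0.94.

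The 3 CD5L probes correlated at r of 0.86 to 0.95. Between the CD163 probes r ran from 0.21 to 0.86 with a median of 0.68. Probes A_72_P624895 and A_72_P656100 correlated at 0.83 (permutation p = 2e-05, adjusted p = 0.000202), and A_72_P080421 and A_72_P119126 at 0.86 (permutation p = 1e-05, adjusted p = 0.000114), while A_72_P119126 and A_72_P624895 reached 0.21. Within the separate scan days the CD163 range was -0.09 to 0.91. On deviations from the slide means it was 0.51 to 0.94. Those deviations leave the differences between groups in, so they do not show agreement of the probes within groups. The 2 CD84 probes, which name the same gene, correlated at 0.07 (rho 0.09, permutation p = 0.757, adjusted p = 0.820).

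Between different genes 4 pairs passed other than those among the C1q chains. CD163 against the C1q chains gave r of 0.03 to 0.61 over 18 pairs, all above 0, and 1 passed. It was A_72_P624895 with C1QA at 0.61 (permutation p = 0.00348, adjusted p = 0.0211) with rho of 0.57 (permutation p = 0.00619, adjusted p = 0.0376). That r was 0.63 without the 2 farthest pigs, 0.63 and 0.57 within the scan days and 0.46 on deviations from the slide means. CD163 against CD5L gave r from -0.09 (A_72_P624895 with A_72_P529278) to 0.56, and 0.38 between their brightest probes (permutation p = 0.110, adjusted p = 0.278). The highest was CD163 A_72_P170001 with CD5L A_72_P474664, at r of 0.56 (permutation p = 0.00919, adjusted p = 0.0440) and rho of 0.50 (permutation p = 0.0196, adjusted p = 0.0911). That r was 0.35 without the 2 farthest pigs, 0.43 and 0.23 within the scan days and 0.19 on deviations from the slide means. The brightest probes of CD5L and CD84 ran against each other, with r of -0.54 (permutation p = 0.00881, adjusted p = 0.0440) and rho of -0.49 (permutation p = 0.0200, adjusted p = 0.0911). That relation was -0.36 without the 2 farthest pigs, -0.74 on day 1, -0.29 on day 2 and -0.23 on deviations from the slide means. The part of those pigs and of slide in its size was not tested. CD5L A_72_P585291 gave -0.53 with CD84 A_72_P474454 (permutation p = 0.00855, adjusted p = 0.0440) and rho of -0.51 (permutation p = 0.0154, adjusted p = 0.0878). That r was -0.48 without the 2 farthest pigs, -0.71 and -0.34 within the scan days and -0.31 on deviations from the slide means. The other CD84 probe, A_72_P248252, did not share the sign. Its r was 0.12 with CD5L A_72_P474664, 0.21 with A_72_P529278 and 0.15 with A_72_P585291 (permutation test, adjusted p 0.478 to 0.666).

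**Figure D5:**
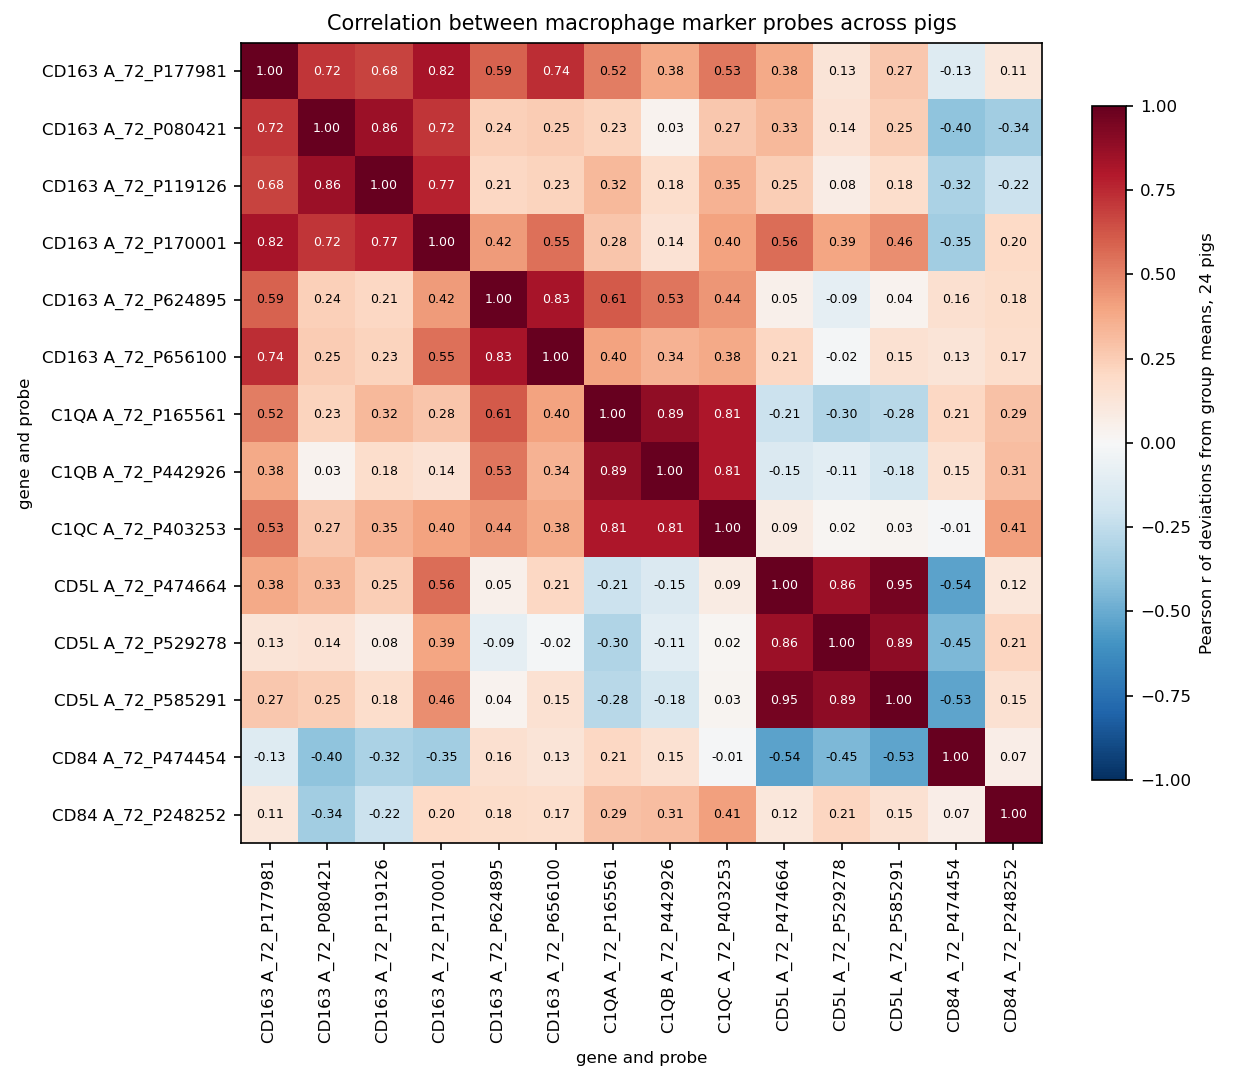
Pearson correlation of each pair of the 14 probes over 24 pigs, on deviations from group means, from -1 (blue) to 1 (red). The C1q block is at 0.81 to 0.89 and the CD5L block at 0.86 to 0.95, while CD84 A_72_P474454 is negative against all 3 CD5L probes.

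Among 4286 other genes with 1 symbol, the pair whose deviations were most like each marker were named. These correlations over 24 pigs share the arrays and their scaling, and are given as descriptions. CD163 was closest to STAP1 (r = 0.80) and PDXK (0.79), C1QA to FES (0.86) and PEA15 (0.82), C1QB to TOR4A (0.90) and GPSM3 (0.81), and C1QC to TBXAS1 (0.76) and ITGB2 (0.75). CD5L was closest to APTX (0.86) and QDPR (0.83), and CD84 to KLF7 (0.77) and MLLT3 (0.74). No gene was named for more than 1 marker.

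A wider list of macrophage genes and of the pathways around the markers held 79 genes, of which 45 were on the array and 41 passed the filter on dim probes. Limma called 0 of the 41 in each comparison. At an unadjusted p under 0.05 there were 2 higher and 1 lower in RFIplR than in RFIneg pigs, 0 between RFIplR and RFIpl pigs, and 2 higher and 0 lower in RFIpl than in RFIneg pigs. Over all probes the shares lower at that p were 6.18% for RFIplR minus RFIneg and 4.47% for RFIpl minus RFIneg. For RFIplR minus RFIneg the 3 smallest p belonged to GPNMB, a glycoprotein of lysosome-rich macrophages (0.62 ± 0.24), C2, a complement protease (0.27 ± 0.11), and CEBPA, a transcription factor of hepatocytes and myeloid cells (-0.93 ± 0.38, all SE).

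Between RFIpl and RFIneg pigs the 3 were SPI1, the myeloid transcription factor PU.1 (0.41 ± 0.15), CD40, a co-stimulatory receptor (0.33 ± 0.14), and SIGLEC1, the macrophage sialic acid receptor sialoadhesin (0.49 ± 0.26, all SE). For RFIplR minus RFIpl they were CEBPA (-0.59 ± 0.38), SPI1 (-0.21 ± 0.15) and FTH1, the ferritin heavy chain (-0.09 ± 0.07, all SE). VSIG4, a complement receptor of Kupffer cells, differed by 0.20 ± 0.16 for RFIplR minus RFIneg and 0.04 ± 0.16 for RFIplR minus RFIpl (SE). The mean level of 26 other macrophage and myeloid genes was 1.59 ± 0.17 in RFIplR, 1.60 ± 0.17 in RFIpl and 1.53 ± 0.12 in RFIneg pigs (SD, n = 8).

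On the haemoglobin route that CD163 serves, 4 of 6 listed genes were measured. Haptoglobin (HP), the plasma partner of haemoglobin, differed by 0.04 ± 0.07 between RFIplR and RFIneg pigs, and the haem carrier hemopexin (HPX) by 0.05 ± 0.07 (SE). HMOX1, the enzyme that opens the haem ring, was 5.35 in RFIplR, 5.16 in RFIpl and 5.03 in RFIneg pigs, a difference of 0.32 ± 0.17 between RFIplR and RFIneg pigs (SE, limma unadjusted p = 0.0773, adjusted p = 0.456). The ferritin heavy chain FTH1 was below 0, at -0.05 ± 0.07 (SE). Downstream of C1q, all 4 measured genes (C1S, C2, C3 and C4A) were above 0 for RFIplR minus RFIneg, by 0.01 to 0.27, with a median of 0.15 and 0 called.

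Markers of other liver cells were read beside CD163, and none was called. The mean level of 6 stellate cell and fibroblast genes ran from -0.04 to 0.66 in RFIplR, from 0.12 to 0.78 in RFIpl and from 0.54 to 1.18 in RFIneg pigs. For RFIplR minus RFIneg 5 of the 6 were below 0, with a median of -0.46, among them RGS5 at -1.28 ± 0.30 and COL1A2 at -0.84 ± 0.21 (SE, limma adjusted p = 0.0694 and 0.0837). Endothelial genes were below 0 in 7 of 7 with a median of -0.14, and neutrophil genes in 4 of 4 with a median of -0.34. Of the pancreatic acinar genes 2 of 5 on the array passed the filter, and CPA1 differed by -1.81 ± 0.46 (SE, limma adjusted p = 0.0855), while AMY2, the other one kept, differed by 0.03 ± 0.13 (SE). Hepatocyte genes had a median of -0.05. T and NK cell genes were above 0 in 7 of 10 with a median of 0.05, and cholangiocyte genes in 2 of 3 with a median of 0.16. The part of these cells in the CD163 result was not tested.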

How the data were processed

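Liver RNA of 24 pigs was measured on 24 single-colour Agilent arrays (6 slides of 4 arrays), 1 pig each, and groups were taken from the sample titles. The deposited intensity values are the scanner's processed signal, with background subtracted, per the file headers (Agilent Feature Extraction 10.7.3.1). The deposited mean spot and median background intensity values served for normexp only, with an offset of 50. Further deposited columns flag spots as well above background or as outliers. The authors' deposited table of log2 values for 27564 features matched the processed signal on a log2 scale after each array was centred on its median, without the CD84 probes. The submitters' processing notes name R 2.10.0.

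Control spots (1417 of 45220) and outlier spots were left out, log2 signal was taken relative to each array's 75th percentile, and spots were averaged to 43603 probes. Probes well above background on at least 6 of 8 arrays of a group were kept (29661, all 14 of the set). Probes were named through their own annotation and RefSeq names of Sscrofa11.1. Probe positions were not checked against a genome.

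Groups were compared with limma 3.58.1 in R 4.3.3 over all 24 arrays, with group as the only factor and Benjamini-Hochberg adjustment over the probes kept. Scan day and slide come from the file headers. The change of a difference between scan days was tested in a limma fit with a mean for each group and day, added after the data were seen. The brightest probe of a gene is the one with the highest mean signal. Named were all members, for each the 2 genes most like it, and in the wider list the 3 genes with the smallest p in each comparison. VSIG4, HP, HPX, HMOX1, RGS5, COL1A2, CPA1 and AMY2 and the complement genes were named after their values were seen. The members and gene lists were chosen with earlier results of these data known. Python 3.11.15 (pandas 2.3.3, numpy 2.4.6, matplotlib 3.10.9) read the files and drew the plots. The number of arrays limits the precision. The sequences of the other member probes are not reported here.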

Additional observations from a re-analysis of the deposited data

Results flagged for a closer look

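In 42 groups of 8 pigs (14 probes in 3 groups), the lowest or highest pig was checked for its distance from the rest, a check that chance alone sets off in about 1 group in 20. It singled out 4 values, all of CD163 and all low. RFIplR pig 5 read -1.70 on A_72_P080421, where the next RFIplR pig read -0.86, -1.26 on A_72_P170001, where the next read -0.45, and 2.23 on A_72_P656100, where the next read 2.98. RFIpl pig 5 read -1.36 on A_72_P170001, where the next RFIpl pig read -0.78. The 3 values of RFIplR pig 5 come from 1 array and from probes annotated to 1 gene. The differences without that pig stand with the CD163 results.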

How the results depend on the processing

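The same 35 alternatives were run for each comparison, 19 of settings, slides or scan days and 16 with 1 pig left out. No macrophage gene was called on its brightest probe under any of them, and the median difference over the 6 genes stayed within the spread between pigs, at -0.09 to 0.29 for RFIplR minus RFIneg, -0.24 to -0.00427 for RFIplR minus RFIpl and 0.10 to 0.31 for RFIpl minus RFIneg. The count of called macrophage probes between RFIplR and RFIneg pigs, 0 by the main analysis, was 2 with array weights, 4 without slide 6, and 0 to 4 over single pigs left out. Over all probes, 82 (0.276%) were called in that comparison by the main analysis. The count over all probes was 10 to 100 over the 19 alternatives, and 33 to 148 over single pigs left out. The labels do not say whether equal replicate numbers mark paired pigs, and the main analysis treated the pigs as unpaired. Of the same-numbered pairs 8 of 24 correlated above 0.1 (range -0.188 to 0.423), which cannot settle it. With the pig number as a block 1 macrophage probe was called, CD163 A_72_P170001 (adjusted p = 0.0361).

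Over the 42 differences of single probes, 40 of 1458 alternative values had the other sign, on 21 of the differences, and 6 of these moved beyond the spread between pigs. The cause was not tested. Normexp turned RFIpl minus RFIneg on CD84 A_72_P474454 to -0.14. Scan day 2 alone turned RFIplR minus RFIpl on CD163 A_72_P624895 to -0.018 and on A_72_P656100 to -0.012, and RFIplR minus RFIneg on C1QC to -0.23. Scan day 1 alone turned RFIplR minus RFIneg on CD5L A_72_P474664 to 0.16 and on A_72_P585291 to 0.28.

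Over all probes, the 82 called for RFIplR minus RFIneg became 14 with normexp, 41 with no filter, 51 with slide as a block, 38 and 10 on scan days 1 and 2, 28 with only those groups fitted, 31, 22, 39 and 27 without slides 2, 3, 4 and 5, and 33 to 148 over single pigs left out, with counts of 148, 39, 129, 49, 36 and 42 without RFIplR pigs 1, 2, 5, 6, 7 and 8 and of 51, 47, 53 and 33 without RFIneg pigs 1, 3, 7 and 8. The 45 called for RFIpl minus RFIneg became 5 with normexp, 26 with no filter, 5 and 11 on scan days 1 and 2, 89 with array weights, 13, 28, 22 and 23 without slides 2, 3, 5 and 6, and 27 to 48 over single pigs left out, with 28 and 27 without RFIpl pigs 2 and 3. For RFIplR minus RFIpl, scan day 2 alone called 1. Signal near background limits CD84.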
